A study of Bos indicus and Bos taurus with 17 samples.

Results

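The change in gene expression of milk epithelial cells between day 15 in milk (D15, early lactation) and day 90 (D90, mid lactation) was compared between Kashmiri cattle, a local breed of Kashmir, and Jersey cattle, an improved dairy breed. Gene levels were in FPKM, that is sequenced fragments per kilobase of a gene's transcript relative to all mapped fragments. For every gene the change within a breed was the log2 ratio of FPKM at D90 over FPKM at D15, with 1 FPKM added to each value. The breed difference was the Jersey change minus the Kashmiri change, so a positive value means that the ratio of D90 to D15 was larger in Jersey cattle. Of 21631 distinct gene names among 61264 entries, 11941 had at least 1 FPKM in one of the 4 groups, and 177 of these were left out because a group was listed at 0. The remaining 11764 genes are described here. ASB12, with 1.00 FPKM in its highest group, lay just inside the limit of 1 FPKM, and TTC13 lay just outside it with a highest value of 0.998 FPKM.

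The 4 groups held cells from milk of Kashmiri cows at D15 (3 samples) and D90 (3 samples) and of Jersey cows at D15 (3 samples) and D90 (2 samples), all untreated. The samples of D15 carried the month March and those of D90 the month July, so stage and season cannot be told apart. By the labels, Kashmiri samples were of lactation number 3 in 2 of 3 at D15 and of number 2 in all 3 at D90. Jersey samples were of number 3 in 1 of 3 at D15 and in 1 of 2 at D90. In Kashmiri cattle lactation number thus shifted with stage, and their parts cannot be told apart. The labels did not tie a sample at D15 to a sample at D90, and gave no age. The study describes 3 cows of each breed at 1 farm, in lactation number 3. Each group had a single value per gene, which the authors had pooled over libraries. Which libraries entered each value could not be checked. No error, interval or test could be computed, and every difference below is one between group values whose spread between cows is unknown. Jersey cattle at D90 have fewer labelled samples than the other groups, and the depth behind the values is unknown.

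Milk carries epithelial cells shed from the secretory alveoli together with neutrophils, macrophages and lymphocytes. The study enriched the epithelial cells with magnetic beads that carried an antibody to cytokeratin 18. Mammary epithelial cells make caseins and whey proteins, build lactose from glucose, and assemble triglycerides from fatty acids that they synthesise or take up with lipoprotein lipase. Leukocytes in milk respond to microbial products through Toll-like receptors, which activate the transcription factor NF-kB and, through it, cytokine and chemokine genes. In such bulk samples fewer cells of a type and less RNA per cell cannot be told apart.

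Where both breeds changed at least 2-fold, the changes mostly went the same way. Between D15 and D90, 518 genes were at least 2-fold higher in both breeds (4.4% of all members) and 1127 were at least 2-fold lower in both (9.58%). Opposite changes of that size were seen in 125 genes. Of these, 96 were lower in Jersey and higher in Kashmiri cattle (0.816% of members) and 29 were higher in Jersey and lower in Kashmiri cattle (0.247%). Among the 1770 genes past the limit in both breeds, the direction was shared by 92.9%. Past the limit in Jersey cattle alone were 825 higher and 621 lower genes, and in Kashmiri cattle alone 1000 higher and 903 lower. A further 6645 genes were within 2-fold in both breeds. Over all members, whatever the size of the change, 71.6% had the same sign in both breeds.

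In Jersey cattle 11.7% of members were at least 2-fold higher at D90 and 15.7% at least 2-fold lower. The shares in Kashmiri cattle were 13.7% and 17.5%. The split between higher and lower depends on the scale. As deposited, Jersey cattle had 1372 higher and 1844 lower genes, and Kashmiri cattle 1614 and 2059. With FPKM rescaled to an equal sum without the milk protein genes, the counts were 2082 and 1517 in Jersey and 2463 and 1546 in Kashmiri cattle, while in both breeds together 955 were higher and 883 lower, and the median change of all members moved from 0.02 to 0.26 (Kashmiri) and from -0.09 to 0.10 (Jersey). Rescaling by the upper quartile gave 742 genes higher and 894 lower in both breeds, 1671 and 1508 in Jersey and 2117 and 1706 in Kashmiri cattle. The median breed difference was 0.02 as deposited, -0.04 with equal sums and 0.13 with the changes of each breed centred on their median.

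A breed difference of at least 1, that is a 2-fold larger ratio in Jersey cattle, was seen in 1221 genes (10.4%), and a difference of -1 or less in 1511 genes (12.8%). Differences of at least 2, or 4-fold, numbered 210 (1.79%), and those of -2 or less numbered 392 (3.33%). With the changes of each breed centred on their median the excess turned, with 1499 differences of at least 1 and 1294 of -1 or less. The shares as deposited over all members are the background for each gene list below. The quartiles of the difference were -0.53 and 0.51, and its standard deviation over genes was 0.98. Across the 11764 genes the changes of the 2 breeds had a Pearson correlation of 0.58 and a Spearman correlation of 0.57, given as a description because genes are not independent replicates.

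**Figure D1:**
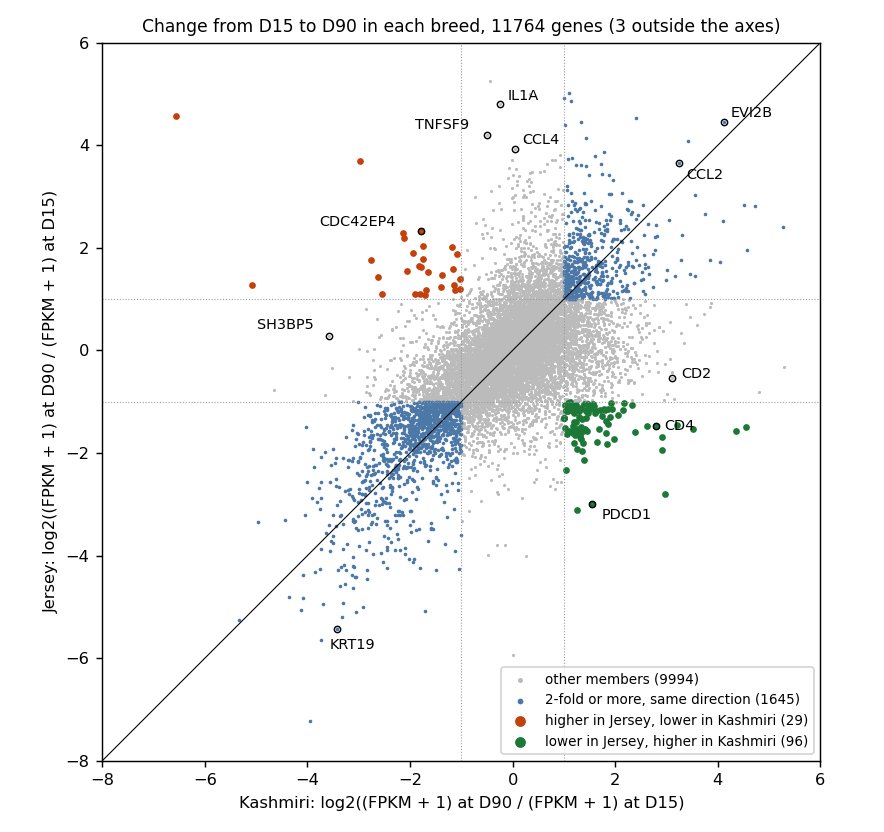
Change from D15 to D90 in Kashmiri cattle (horizontal axis) and Jersey cattle (vertical axis), as log2 ratios of FPKM + 1, 1 point per gene and no error. The diagonal marks equal changes and the dotted lines a 2-fold change, and 1645 genes lie past both lines in the same direction against 125 in opposite directions.

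The genes named by the rule as higher at D90 in both breeds included CD68, a macrophage marker, and 4 of the 15 macrophage markers fell in that class. EVI2B, a membrane protein of blood cells, went from 2.67 to 62.7 FPKM in Kashmiri and from 17.2 to 397 FPKM in Jersey cows, log2 changes of 4.12 and 4.45. CCL2, the chemokine that attracts monocytes, went from 7.85 to 82.6 FPKM in Kashmiri and from 122 to 1550.5 FPKM in Jersey cows. CD68, a lysosomal glycoprotein of macrophages, went from 11.4 to 281 FPKM in Kashmiri and from 169 to 1211 FPKM in Jersey cows. In each of these genes Jersey cattle had the higher level on both days, while the ratios of D90 to D15 differed by less than 2-fold for EVI2B and CCL2 and more for CD68 (difference -1.67). The set by the same rule was completed by MS4A8, a membrane protein of the MS4A family (changes of 2.55 in Kashmiri and 2.84 in Jersey), GPNMB, a membrane glycoprotein of macrophages (4.09 and 2.52), and DEGS1, the desaturase that makes ceramide (2.64 and 2.47).

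Among the genes lower at D90 in both breeds were 10 of 16 epithelial markers, KRT19 being one of those named by the rule. TFF3, a trefoil peptide secreted by mucosal epithelia, went from 1898 to 141 FPKM in Kashmiri and from 513 to 9.29 FPKM in Jersey cows. KRT19, a keratin of simple epithelia, went from 3195 to 295 FPKM in Kashmiri and from 1687 to 38.2 FPKM in Jersey cows. The smallest of these 4 ratios was that of KRT19 in Kashmiri cattle, 10.8-fold, and for both genes the larger ratio was that of Jersey cattle. GP2, a glycoprotein of secretory membranes, had changes of -3.76 in Kashmiri and -4.26 in Jersey cattle, DNAJC12, a co-chaperone, had -3.36 and -4.59, and NRTN, which encodes the growth factor neurturin, had nearly equal changes of -3.44 and -3.42.

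The epithelial markers were lower at D90 in both breeds, with the larger change in Jersey cattle. Of 16 markers, 11 were at least 2-fold lower in Kashmiri and 14 in Jersey cattle, and 12 had a breed difference of -1 or less. Their median change was -1.27 for Kashmiri and -3.47 for Jersey cattle, and the median difference was -1.66 against 0.02 for all members. KRT18, the keratin the beads recognised, went from 51.3 to 9.13 FPKM in Kashmiri and from 33.7 to 1.59 FPKM in Jersey cows, which is 5.61-fold and 21.2-fold lower. ELF5, the transcription factor of the secretory alveolus, went from 1799 to 206 FPKM in Kashmiri and from 338 to 12.6 FPKM in Jersey cows. MUC1, a mucin of the apical membrane and the milk fat globule, went from 137 to 43.0 FPKM in Kashmiri and from 45.0 to 2.48 FPKM in Jersey cows. In all 3 genes the Jersey value at D90 was the lowest of the 4. KRT15, a keratin of stratified epithelia, showed the same order with 58.8 and 28.7 FPKM in Kashmiri cattle against 54.1 and 3.54 FPKM in Jersey cattle at D15 and D90. CDH1, the adhesion molecule E-cadherin, was an exception, with changes of -1.14 and -0.75. Tight junction genes, 13 members, were lower as well, with medians of -1.65 in Kashmiri and -0.97 in Jersey, but with 9 differences above 0 and a median difference of 0.79, which turned to -0.61 among genes with at least 1 FPKM in all 4 groups, to -0.02 with a pseudocount of 0.1 and to -0.23 with none. Desmosome and hemidesmosome genes, 9 members, had 2 differences of 1 or more and 0 of -1 or less. Their median difference was 0.02, and -0.35 with a pseudocount of 0.1. The summed FPKM of the 16 epithelial markers was 6019 and 772 in Kashmiri and 2814 and 109.9 in Jersey cattle at D15 and D90.

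This shift of epithelial markers lies between the same 4 groups as every comparison below, and its part in them was not tested. Markers of other cell types differed between groups as well, and their part was not tested either. The sum over 12 neutrophil markers was 358 and 543 FPKM in Kashmiri and 6354 and 8032 FPKM in Jersey cattle. The sum over 15 macrophage markers was 121 and 524 FPKM in Kashmiri and 1116 and 2627 FPKM in Jersey cattle. All 12 neutrophil and all 15 macrophage markers were higher in Jersey than in Kashmiri cattle at D15. The epithelial sum exceeded the neutrophil sum in both Kashmiri groups and was below it in both Jersey groups, which all carry the label of mammary epithelial cells. A few abundant genes weigh heavily on such sums. KRT19 alone held 3195 of 6019 FPKM of the epithelial sum at D15 and 295 of 772 FPKM at D90 in Kashmiri cattle. The order of the sums is thus no measure of the share of cells. Of the leukocyte genes by which the study had checked purity, LSP1, a leukocyte protein that binds actin, went from 139 to 254 FPKM in Kashmiri and from 334 to 170.0 FPKM in Jersey cows, and ITGB2, an integrin subunit also called CD18, from 46.5 to 153 FPKM in Kashmiri and from 152 to 179 FPKM in Jersey cows. In the study, that check was a quantitative PCR of captured against unsorted milk cells at D90. It found LSP1 and CD18 lower, and KRT18 and CSN2 higher, in the captured cells. The FPKM values compare days and breeds within captured cells and do not repeat that check. PTPRC, the pan-leukocyte antigen CD45, which that check did not use, went from 68.7 to 166 FPKM in Kashmiri and from 60.0 to 119.6 FPKM in Jersey cows. LSP1 and PTPRC are names carried by several entries, of which the one with the highest mean was used, and they are given here only as leukocyte markers.

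**Figure D2:**
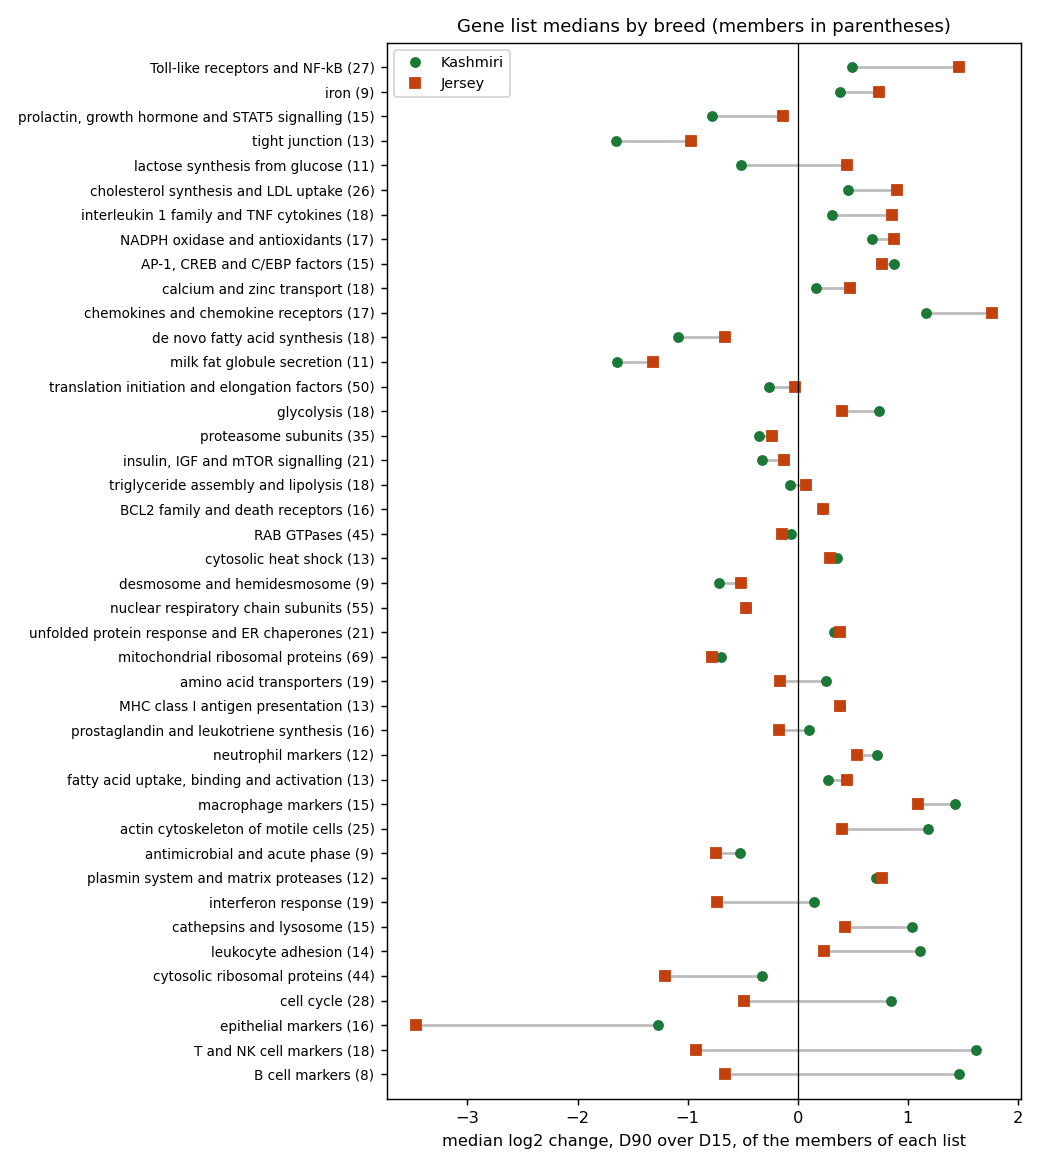
Median log2 change from D15 to D90 of gene lists with at least 8 members, for Kashmiri (circles) and Jersey cattle (squares), without error, ordered by the median breed difference. B cell and T cell markers lie at the bottom with medians of 1.46 and 1.62 in Kashmiri against -0.67 and -0.93 in Jersey cattle, and Toll-like receptor and NF-kB genes at the top with 0.49 and 1.47.

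The 96 genes that were higher in Kashmiri and lower in Jersey cattle included 4 of 18 T and NK cell markers and 1 of 8 B cell markers. PDCD1 and CD4 were among the 6 named by the rule, after LY6E. T cells carry the CD3 complex, which transmits the signal of the T cell receptor, and the co-receptors CD4 or CD8. CD3E, a chain of that complex, went from 146 to 659 FPKM in Kashmiri and from 65.5 to 31.7 FPKM in Jersey cows, that is 4.52-fold higher and 2.07-fold lower. CD4, the co-receptor of helper T cells, went from 13.5 to 98.9 FPKM in Kashmiri and from 25.1 to 8.37 FPKM in Jersey cows. PDCD1, the inhibitory receptor PD-1 of activated T cells, went from 8.65 to 27.3 FPKM in Kashmiri and from 37.3 to 3.81 FPKM in Jersey cows. At D90 the Kashmiri level of each was the higher one, whereas at D15 CD4 and PDCD1 had been higher in Jersey cattle. PDCD1 had the most negative breed difference of the genes that could be named by the rule (-4.55), followed by CD4 (-4.26) and CD2, an adhesion receptor of T cells (-3.65). CD2 was near equal at D15, at 15.3 FPKM in Kashmiri and 13.96 FPKM in Jersey cattle, and stood at 141 and 9.33 FPKM at D90. NCR3, an activating receptor of natural killer cells, went from 55.7 to 147 FPKM in Kashmiri and from 68.2 to 14.8 FPKM in Jersey cows.

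Over the list of 19 T and NK cell markers, 18 were members. In Kashmiri cattle 12 of the 18 were at least 2-fold higher at D90 and 0 were lower, while in Jersey cattle 1 was higher and 6 were lower. The breed difference was -1 or less in 14 of 18, with a median of -2.06. CD5, CD3D, CD3G and CD247, a co-receptor and the other chains of the CD3 complex, had differences of -3.21, -2.95, -2.64 and -2.43. CD8A and CD8B, the co-receptor of cytotoxic T cells, differed mainly through Jersey cattle, with changes of -1.37 and -1.13 there and of 0.20 and 0.43 in Kashmiri cattle. IL7R, the interleukin 7 receptor, was the marker that was higher at D90 in both breeds, by 2.02 in Kashmiri and 1.47 in Jersey cattle. The summed FPKM of the 18 markers was 539 and 2026 in Kashmiri and 372 and 268 in Jersey cattle. Members have no 0 by rule, and no T and NK cell marker among the deposited names was left out for one.

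B cell markers had the same pattern at lower levels. CD79A, a signalling chain of the B cell receptor, went from 8.03 to 42.5 FPKM in Kashmiri and from 6.93 to 4.22 FPKM in Jersey cows. CD79B, its partner chain, went from 1.54 to 11.8 FPKM in Kashmiri and from 5.81 to 2.46 FPKM in Jersey cows. MS4A1, the surface antigen CD20, went from 2.23 to 7.503 FPKM in Kashmiri and from 3.72 to 1.86 FPKM in Jersey cows. Kashmiri values were higher at D90 and Jersey values lower in all 3. Of 8 members among 10 B cell markers, 5 were at least 2-fold higher in Kashmiri and 1 at least 2-fold lower in Jersey cattle, and 7 had a difference of -1 or less. The median difference was -2.13, and the summed FPKM stayed between 15.6 and 83.4.

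Genes of the cell cycle also split by breed. MCM3, a subunit of the helicase that opens DNA for replication, went from 6.36 to 16.5 FPKM in Kashmiri and from 12.01 to 3.24 FPKM in Jersey cows. AURKB, a mitotic kinase, went from 1.27 to 3.36 FPKM in Kashmiri and from 6.36 to 1.88 FPKM in Jersey cows. Both were higher at D90 in Kashmiri cattle and lower in Jersey cattle. Of 28 members among 30 cell cycle genes, 10 were at least 2-fold higher in Kashmiri and 7 at least 2-fold lower in Jersey cattle, and 16 had a difference of -1 or less against 0 of 1 or more. The median changes were 0.85 and -0.49. MCM2 (-2.40) and RRM2, a subunit of ribonucleotide reductase (-2.07), had further large differences. CCND3, cyclin D3, had the highest level of these, at 128 and 199 FPKM in Kashmiri cattle against 54.4 and 23.3 FPKM in Jersey cattle. Most other members of the list had low FPKM, so the added 1 FPKM weighs on their ratios.

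Other genes named by the rule for this direction were not lymphocyte markers by the lists. LY6E, a membrane-anchored protein of the Ly6 family, went from 115 to 361 FPKM in Kashmiri and from 92.9 to 26.2 FPKM in Jersey cows. SEPT1, a septin, went from 29.3 to 81.7 FPKM in Kashmiri and from 30.4 to 9.54 FPKM in Jersey cows. TESC, a calcium-binding protein, went from 27.0 to 100.4 FPKM in Kashmiri and from 15.6 to 5.13 FPKM in Jersey cows. SPC24, a kinetochore protein that is not in the cell cycle list, went from 2.58 to 8.53 FPKM in Kashmiri and from 18.3 to 5.67 FPKM in Jersey cows. In LY6E, SEPT1 and TESC the D15 levels of the breeds were within 2-fold and the D90 levels were not. S100A2 and S100A13, calcium-binding proteins of the S100 family, differed by -3.65 and -3.52, S100A2 mainly because Jersey values went from 412 to 28.9 FPKM. RARRES1, a retinoid-responsive gene, differed by -3.52 because Kashmiri values went from 2.46 to 28.7 FPKM, and ASB11, a ubiquitin ligase adaptor, by -3.43.

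**Figure D3:**
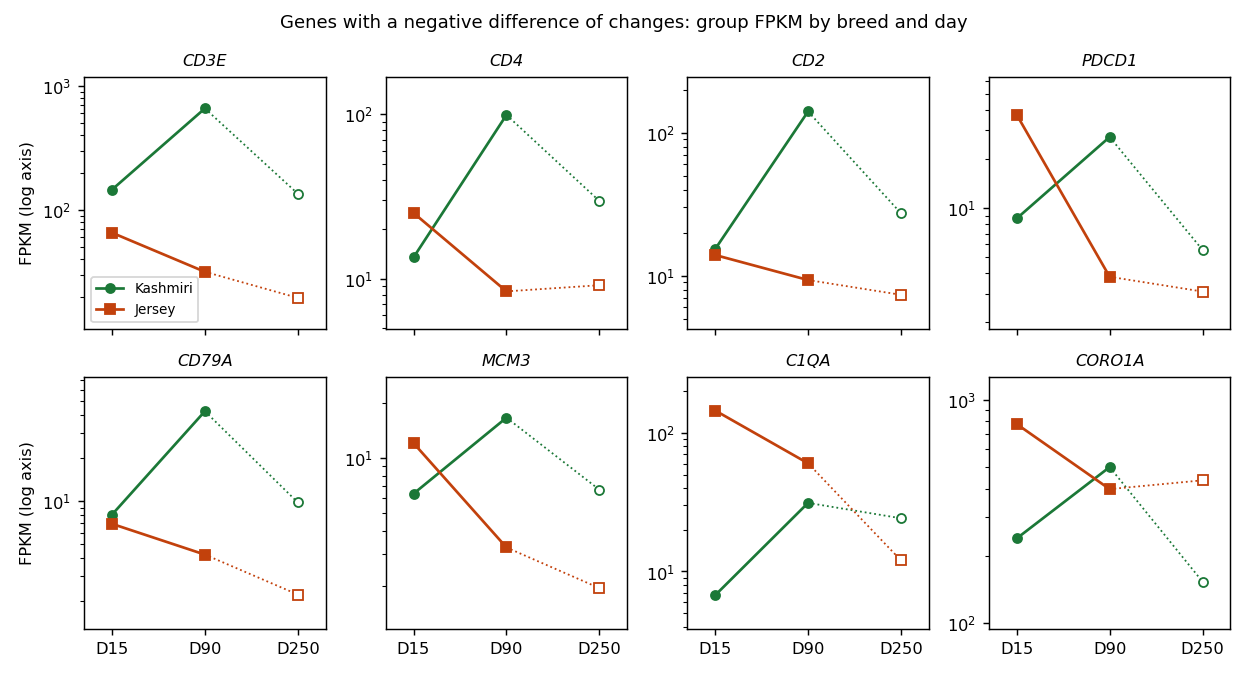
FPKM of 8 genes with a negative breed difference on a log axis, for Kashmiri (circles) and Jersey cattle (squares) at D15, D90 and, with open symbols and dotted lines, D250, 1 group value per point and no error. From D15 to D90 the Kashmiri line goes up and the Jersey line down in each panel, for example from 146 to 659 and from 65.5 to 31.7 FPKM for CD3E.

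All 15 macrophage markers had a change above 0 in Kashmiri cattle, and 12 of 15 did in Jersey cattle. Their breed differences did not share a sign. The 3 chains of complement C1q, which macrophages secrete, had like patterns. C1QA went from 6.73 to 31.3 FPKM in Kashmiri and from 145 to 60.3 FPKM in Jersey cows, C1QB from 5.96 to 25.8 FPKM in Kashmiri and from 98.2 to 55.9 FPKM in Jersey cows and C1QC from 7.53 to 20.5 FPKM in Kashmiri and from 144 to 42.9 FPKM in Jersey cows. All 3 were far higher in Jersey cattle at D15 and the breeds were closer at D90. OCSTAMP, a protein of macrophage and osteoclast fusion, had a breed difference of the opposite sign (3.04), being higher at D90 in both breeds, from 1.21 to 1.75 FPKM in Kashmiri and from 18.1 to 194 FPKM in Jersey cows. Over 15 macrophage markers, 10 were at least 2-fold higher in Kashmiri and 8 in Jersey cattle, 3 differed by 1 or more and 7 by -1 or less. CSF1R, the receptor that maintains macrophages, and CD163, a haemoglobin scavenger receptor, differed by -1.11 and -1.15.

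The median difference was negative for MHC class II, lysosomal and actin genes, by differing amounts. CD74, the invariant chain that escorts MHC class II molecules, went from 240.5 to 1533 FPKM in Kashmiri and from 2336 to 3391 FPKM in Jersey cows, and BOLA-DRB3, a bovine class II beta chain, from 125 to 234 FPKM in Kashmiri and from 892 to 482 FPKM in Jersey cows. The 4 class II members of 14 listed genes all differed by -1 or less, the median being -1.56. CTSB, the lysosomal protease cathepsin B, went from 235 to 909 FPKM in Kashmiri and from 3772 to 4479 FPKM in Jersey cows. Of 15 cathepsin and lysosome members, 8 were at least 2-fold higher in Kashmiri and 5 in Jersey cattle, and 6 differed by -1 or less. CORO1A, an actin-binding protein of leukocytes, went from 239 to 499.6 FPKM in Kashmiri and from 779 to 398 FPKM in Jersey cows. Of 25 actin genes of motile cells, 14 were higher in Kashmiri and 7 in Jersey cattle, 4 differed by -1 or less and 1 by 1 or more, and the median difference was -0.56. The share of actin genes at -1 or less was thus near that of all members. These levels were higher in Jersey cattle at D15, where the median log2 ratio of Jersey over Kashmiri was 3.05 for class II, 2.39 for lysosomal and 1.26 for actin genes.

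Interferon-induced genes leaned to lower values at D90 in Jersey cattle, with a median change of -0.73 against 0.15 in Kashmiri cattle. RSAD2, the antiviral protein viperin, went from 10.2 to 8.30 FPKM in Kashmiri and from 62.4 to 10.6 FPKM in Jersey cows. ISG15, a ubiquitin-like protein, was lower in both, going from 545 to 248 FPKM in Kashmiri and from 4494 to 1373 FPKM in Jersey cows. Of 19 members among 28 interferon genes, 5 were at least 2-fold lower in Jersey and 2 in Kashmiri cattle, 6 differed by -1 or less and 0 by 1 or more. IFI6 differed by -2.12 and IFIT2 by -1.09. IFI35 was among those with a difference above 0 (0.52), with changes of -1.50 in Kashmiri and -0.98 in Jersey cattle.

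On the positive side, the breed differences of the genes that could be named were led by IL1A and TNFSF9, immune genes that were higher at D90 in Jersey cattle and nearly level in Kashmiri cattle. IL1A, the cytokine interleukin 1 alpha, went from 1.68 to 1.26 FPKM in Kashmiri and from 3.90 to 137 FPKM in Jersey cows, a difference of 5.06. TNFSF9, the ligand of the T cell co-stimulator 4-1BB, went from 15.0 to 10.4 FPKM in Kashmiri and from 6.88 to 145 FPKM in Jersey cows. CCL4, a chemokine for T cells and monocytes, went from 269.7 to 280.2 FPKM in Kashmiri and from 86.2 to 1324 FPKM in Jersey cows. For TNFSF9 and CCL4 the Jersey level was the lower one at D15 and the higher one at D90. IL1B, interleukin 1 beta, went from 16.2 to 16.1 FPKM in Kashmiri and from 243 to 1905 FPKM in Jersey cows, so that its Kashmiri change was -0.01 and its Jersey change 2.97.

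The genes of the Toll-like receptors and NF-kB had the largest positive median of the lists with 8 or more members at a pseudocount of 1 FPKM. With no pseudocount the iron list of 9 members came before it, at 1.06 against 1.05, and with names of several entries left out at 1.19 against 0.97. Of 27 members among 33 genes, 18 were at least 2-fold higher at D90 in Jersey and 9 in Kashmiri cattle, and 8 were so in both. The difference was 1 or more in 14, -1 or less in 0, and above 0 in 24 of 27. The median difference was 1.08. Among the receptors, TLR2, which senses bacterial lipoproteins, went from 6.87 to 9.04 FPKM in Kashmiri and from 63.5 to 177 FPKM in Jersey cows, and TLR4, which senses lipopolysaccharide, from 5.47 to 9.45 FPKM in Kashmiri and from 40.1 to 143 FPKM in Jersey cows. Both were several-fold higher in Jersey cattle at D15 already.

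Among the adaptors and kinases, IRAK2, which relays the receptor signal, went from 4.66 to 10.2 FPKM in Kashmiri and from 7.58 to 73.9 FPKM in Jersey cows, and TANK, a scaffold of the kinases downstream, from 3.19 to 13.4 FPKM in Kashmiri and from 5.74 to 96.9 FPKM in Jersey cows. For the NF-kB subunits NFKB1 and NFKB2 the Jersey changes were 2.49 and 2.75 and the Kashmiri changes 1.04 and 0.83, while RELA, the transactivating subunit, was within 2-fold in both (-0.58 and 0.28). Among the genes with a symbol of their own, the inhibitors that NF-kB itself induces had the largest differences of the list. TNFAIP3, the ubiquitin-editing enzyme A20, went from 76.1 to 96.1 FPKM in Kashmiri and from 24.4 to 278 FPKM in Jersey cows, and NFKBIA, the inhibitor that retains NF-kB in the cytoplasm, from 56.0 to 119.9 FPKM in Kashmiri and from 371 to 4932 FPKM in Jersey cows. NFKBIA was thus 13.3-fold higher at D90 in Jersey and 2.14-fold higher in Kashmiri cattle. IRAK1, another receptor kinase, was the member that was 2-fold lower in both breeds (-1.63 and -1.25).

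Cytokine genes beyond interleukin 1 were mixed. IL1R1, the signalling receptor of interleukin 1, went from 16.01 to 2.63 FPKM in Kashmiri and from 7.56 to 13.6 FPKM in Jersey cows. IL18, a cytokine of the same family, was higher at D90 in both breeds (2.22 and 1.63), and IL18RAP, a subunit of its receptor, and TNFSF10, a ligand of death receptors, had differences of -1.10 and -1.07. Over 18 members of 21 genes, 8 differed by 1 or more and 4 by -1 or less, with a median of 0.64. Chemokine genes were higher at D90 in both breeds, 10 of 17 in Kashmiri and 11 of 17 in Jersey cattle, 7 of them shared. CCL8 and CXCR4, a monocyte chemokine and the receptor of CXCL12, differed by 1.71 and 1.32, and CXCL9, a chemokine induced by interferon gamma that attracts T cells, by -2.22.

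Single genes of other lists had a like pattern. PTX3, a secreted pattern-recognition protein, went from 1.65 to 3.92 FPKM in Kashmiri and from 26.5 to 244 FPKM in Jersey cows. It had the largest difference of the 9 members of the antimicrobial and acute phase list, which as a whole went the other way, with 7 of 9 differences below 0, 3 at -1 or less against 1 at 1 or more, and a median of -0.58. PLAU, the plasminogen activator urokinase, went from 14.7 to 20.2 FPKM in Kashmiri and from 131 to 807 FPKM in Jersey cows. For PTX3 and PLAU the Jersey level was the higher one on both days and the gap was wider at D90. Matrix protease genes as a list did not lean one way, since 3 of 12 differed by 1 or more and 4 by -1 or less. MMP19, a matrix metalloproteinase, went from 10.2 to 147 FPKM in Kashmiri and from 236 to 386 FPKM in Jersey cows, and TIMP3, a protease inhibitor of the matrix, from 25.6 to 46.8 FPKM in Kashmiri and from 12.1 to 2.88 FPKM in Jersey cows.

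**Figure D4:**
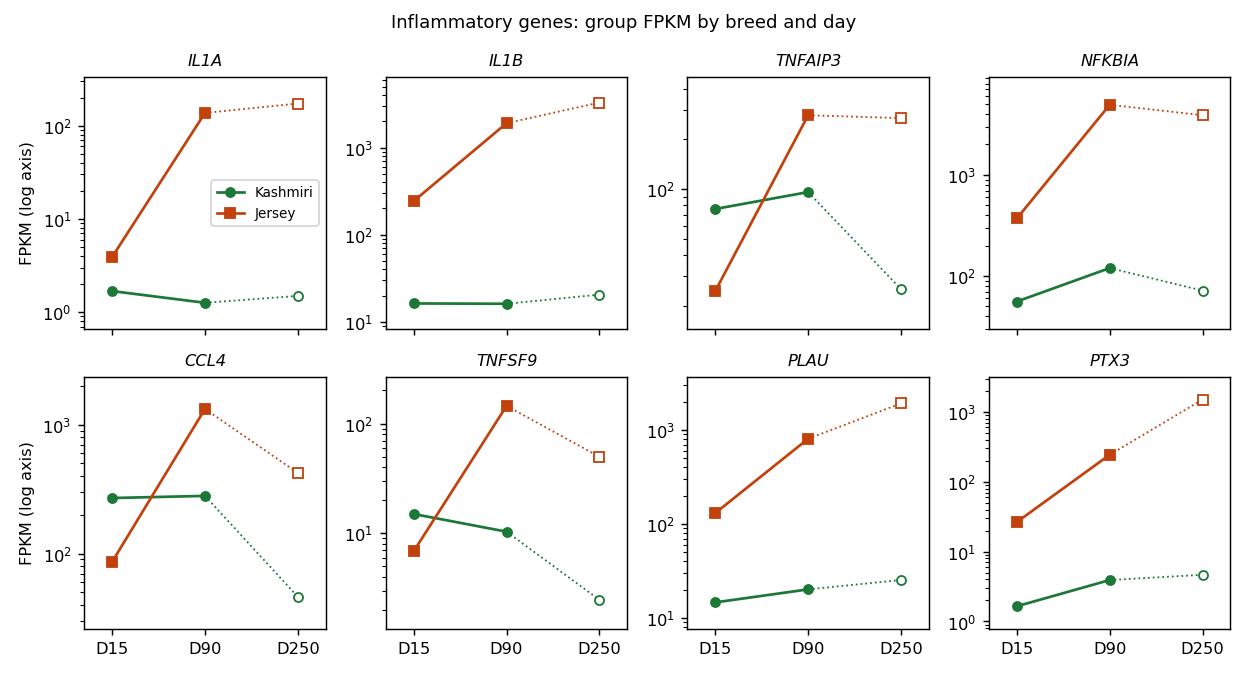
FPKM of 8 inflammatory genes on a log axis, for Kashmiri (circles) and Jersey cattle (squares) at D15, D90 and, with open symbols and dotted lines, D250, 1 group value per point and no error. The Jersey line goes up from D15 to D90 in every panel, for IL1A from 3.90 to 137 FPKM, while the Kashmiri lines move far less, for IL1A from 1.68 to 1.26 FPKM.

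Neutrophil markers did not move as a block. G0S2, an inhibitor of the triglyceride lipase ATGL that is abundant in neutrophils, went from 157 to 20.7 FPKM in Kashmiri and from 938 to 1632 FPKM in Jersey cows. MCEMP1, a membrane protein of myeloid cells, went from 1.00 to 2.21 FPKM in Kashmiri and from 20.5 to 267 FPKM in Jersey cows. The alarmins S100A8 and S100A12, major proteins of the neutrophil cytoplasm, had breed differences of the opposite sign. S100A8 went from 36.4 to 74.3 FPKM in Kashmiri and from 1652 to 1276 FPKM in Jersey cows. S100A12 was higher at D90 in both breeds, going from 39.0 to 240.4 FPKM in Kashmiri and from 1615 to 2267 FPKM in Jersey cows. Over the 12 members of 19 markers, 3 differed by 1 or more and 3 by -1 or less, with a median difference of -0.15.

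Opposite changes with higher values at D90 in Jersey cattle were rare, and the genes named by the rule had varied roles. CDC42EP4, an effector of the GTPase CDC42, went from 10.7 to 2.37 FPKM in Kashmiri and from 8.18 to 45.1 FPKM in Jersey cows. TBC1D8, a protein with a RAB-regulating domain, went from 12.8 to 3.14 FPKM in Kashmiri and from 8.59 to 38.5 FPKM in Jersey cows. GGT5, an enzyme that cleaves glutathione conjugates and leukotriene C4, went from 17.5 to 3.47 FPKM in Kashmiri and from 67.6 to 199.6 FPKM in Jersey cows. In Kashmiri cattle these 3 were lower by 4.08-fold to 5.04-fold, and in Jersey cattle higher by 2.95-fold to 5.52-fold. VDR, the vitamin D receptor, went from 24.1 to 5.68 FPKM in Kashmiri and from 13.0 to 29.0 FPKM in Jersey cows, POLB, the DNA polymerase of base excision repair, from 55.0 to 20.5 FPKM in Kashmiri and from 26.9 to 77.0 FPKM in Jersey cows, and SEC22B, a membrane fusion protein between endoplasmic reticulum and Golgi, from 28.3 to 12.5 FPKM in Kashmiri and from 13.5 to 31.8 FPKM in Jersey cows. For POLB, SEC22B and VDR the order of the breeds at D15 was the reverse of that at D90. SH3BP5, whose product binds SH3 domains, reached a difference of 3.85 through Kashmiri cattle, where it went from 139 to 10.8 FPKM.

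Milk fat genes shared the lower level at D90 in part. Genes of fatty acid synthesis from acetate were split. FASN, fatty acid synthase, went from 829 to 142 FPKM in Kashmiri and from 188 to 9.92 FPKM in Jersey cows, and ACSS2, which activates acetate, from 382 to 105 FPKM in Kashmiri and from 113 to 16.5 FPKM in Jersey cows. Of 18 members, 8 were at least 2-fold lower in both breeds and 1 was higher in both, and 10 had a difference above 0. GPAM, the first acyltransferase of triglyceride assembly, was lower to a like degree (-3.12 and -2.84). FASN and FABP3, the fatty acid carrier of the lactating gland, had the larger change in Jersey cattle, with differences of -1.58 and -1.60.

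Other milk fat genes were lower at D90 in Kashmiri cattle and near level in Jersey cattle. LPL, lipoprotein lipase, went from 289.7 to 43.8 FPKM in Kashmiri and from 42.2 to 43.0 FPKM in Jersey cows. LPIN1, the phosphatidate phosphatase lipin 1, went from 51.9 to 5.63 FPKM in Kashmiri and from 3.03 to 3.13 FPKM in Jersey cows. PLIN2, the coat protein of lipid droplets, went from 1359.8 to 225 FPKM in Kashmiri and from 659 to 535 FPKM in Jersey cows. All 3 started higher in Kashmiri cattle, by log2 ratios of Jersey over Kashmiri of -2.75, -3.71 and -1.04, and were within about 2-fold between breeds or higher in Jersey cattle at D90 (-0.03, -0.68 and 1.25). GPAT4 and AGPAT1, acyltransferases of glycerolipid synthesis, differed in the same sense by 2.57 and 1.97. XDH, the enzyme that anchors the droplet to the membrane, differed by 1.15 but was not level in Jersey cattle. The paper lists it as lower at D90 in both breeds. MFGE8, a protein of the milk fat globule surface, differed the other way, going from 1024 to 339 FPKM in Kashmiri and from 279.7 to 24.1 FPKM in Jersey cows. Of 18 triglyceride genes, 5, G0S2 of the neutrophil markers among them, differed by 1 or more and 0 by -1 or less, with a median of 0.09 whose sign turns with the scaling. The same counts for the 11 genes of globule secretion were 3 and 4. FABP4, a carrier of adipocytes and macrophages, was higher at D90 in Kashmiri cattle, going from 17.6 to 154 FPKM in Kashmiri and from 216 to 317 FPKM in Jersey cows.

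Lower values at D90 in Kashmiri but not in Jersey cattle were also seen in some genes of lactose supply. UGP2, which makes UDP-glucose, went from 190.2 to 49.7 FPKM in Kashmiri and from 56.1 to 91.3 FPKM in Jersey cows. SLC2A1, the glucose transporter GLUT1, went from 36.0 to 17.9 FPKM in Kashmiri and from 41.0 to 81.7 FPKM in Jersey cows. B4GALT1, the galactosyltransferase that forms lactose with alpha-lactalbumin, went from 112 to 52.0 FPKM in Kashmiri and from 37.6 to 53.5 FPKM in Jersey cows. Kashmiri values were about 2-fold lower or more at D90, and Jersey values were higher by less than 2-fold. At D15 UGP2 and B4GALT1 had been higher in Kashmiri cattle and SLC2A1 in Jersey cattle. Over the 11 members of the list the median log2 ratio of Jersey over Kashmiri at D15 was 0.15. Of 11 members of 15 genes, 7 had a difference above 0, 3 of them by 1 or more, and 1, GALK1 (galactokinase), by -1 or less (-1.38). LALBA, the alpha-lactalbumin gene, was listed at 0 at D15 in both breeds and is no member. The paper counts LALBA and the casein genes among the most highly expressed genes of both breeds at each stage. The values listed for these genes do not match that description. They were not read as absence of expression. Of 10 milk protein genes, 6 were named in the table and LPO, the lactoperoxidase gene, was the one without a 0, going from 249.8 to 64.4 FPKM in Kashmiri and from 44.2 to 1.61 FPKM in Jersey cows. SLC39A8, a zinc and manganese importer, had the order of UGP2, with 84.4 and 24.2 FPKM in Kashmiri cattle against 32.7 and 55.7 FPKM in Jersey cattle at D15 and D90.

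**Figure D5:**
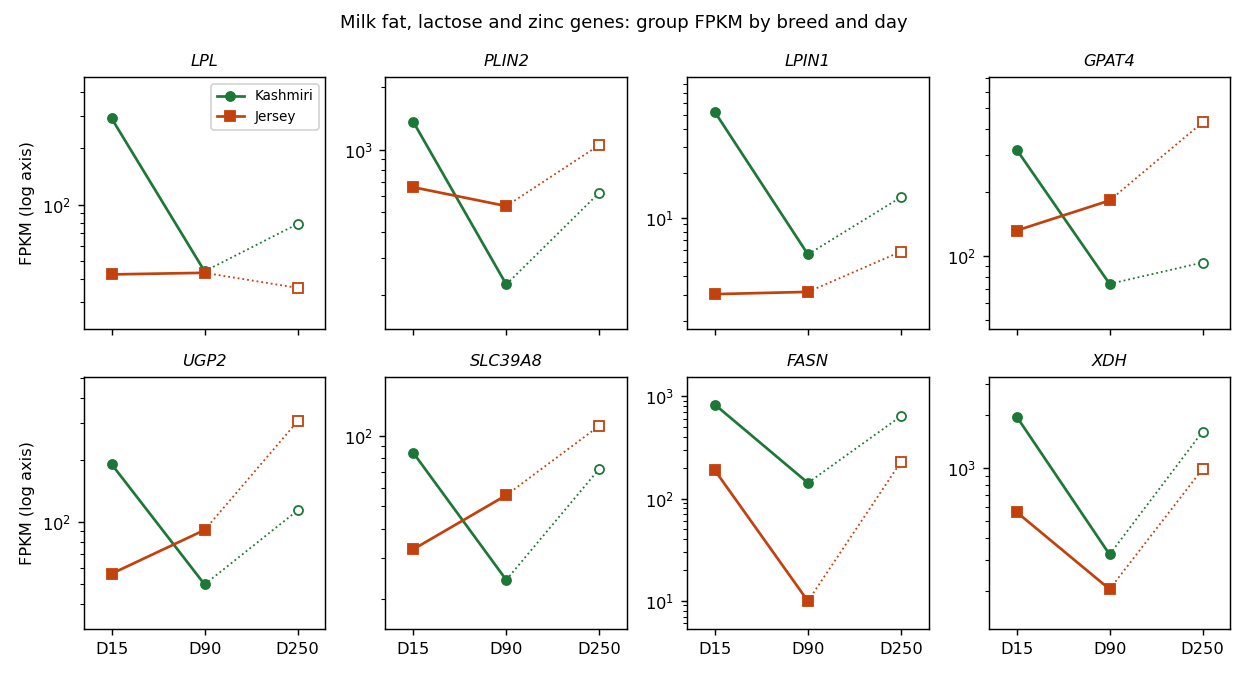
FPKM of 8 genes of milk fat, lactose supply and zinc uptake on a log axis, for Kashmiri (circles) and Jersey cattle (squares) at D15, D90 and, with open symbols and dotted lines, D250, 1 group value per point and no error. The Kashmiri line goes down from D15 to D90 in every panel, for LPL from 289.7 to 43.8 FPKM, whereas the Jersey line is level for LPL (42.2 and 43.0 FPKM) and goes down for FASN (188 and 9.92 FPKM).

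Prolactin acts on the gland through JAK2 and STAT5. JAK2 went from 4.61 to 3.38 FPKM in Kashmiri and from 6.55 to 19.0 FPKM in Jersey cows and STAT5A from 106 to 78.5 FPKM in Kashmiri and from 56.7 to 112 FPKM in Jersey cows, and the feedback inhibitors SOCS2 and CISH, which STAT5 induces, differed by 1.82 and 1.24. Of 15 members, 7 differed by 1 or more and 2 by -1 or less. One of these was ELF5, described above (-1.52). In Jersey cattle 2 members were at least 2-fold higher at D90 and 4 at least 2-fold lower. The median changes were -0.78 in Kashmiri and -0.13 in Jersey cattle. The median difference was 0.83, and 0.34 with a pseudocount of 0.1.

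Cholesterol genes were at least 2-fold higher at D90 than at D15 more often in Jersey cattle. HMGCS1, the synthase that makes HMG-CoA, went from 20.6 to 50.9 FPKM in Kashmiri and from 9.56 to 53.2 FPKM in Jersey cows. MVD, an enzyme of the mevalonate steps, went from 73.4 to 46.3 FPKM in Kashmiri and from 45.7 to 96.3 FPKM in Jersey cows. Of 26 members, 12 were at least 2-fold higher in Jersey and 7 in Kashmiri cattle, 6 in both, and 19 had a difference above 0, with a median of 0.72. The Jersey level was the lower one in 25 of 26 members at D15 and still in 19 of 26 at D90. The median log2 ratio of Jersey over Kashmiri was -0.90 at D15 and -0.55 at D90. HSD17B7 and IDI1, 2 further enzymes, differed by 1.42 and 1.28. SCAP, the escort protein of the controlling factor SREBP, was the member with a difference of -1 or less (-1.07).

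Ribosomal protein genes were lower at D90 mainly in Jersey cattle. Of 44 cytosolic ribosomal protein genes, 26 were at least 2-fold lower in Jersey and 6 in Kashmiri cattle, and 42 of 44 had a difference below 0. RPL37 went from 3595 to 6360.5 FPKM in Kashmiri and from 1981 to 1254 FPKM in Jersey cows, RPS13 from 2385 to 3711 FPKM in Kashmiri and from 1124 to 651 FPKM in Jersey cows and RPS19 from 11377 to 7553 FPKM in Kashmiri and from 6068 to 1664 FPKM in Jersey cows. The summed FPKM was 272239 and 201013 in Kashmiri and 127630 and 47839 in Jersey cattle, so the Jersey level was already the lower one at D15. Ribosomal protein genes have many processed copies, and how reads were shared with them is not known here.

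Other lists of housekeeping genes differed little between breeds. Of 69 mitochondrial ribosomal protein genes, 19 were at least 2-fold lower in both breeds and 0 differed by 1 or more in either direction. Of 55 nuclear subunits of the respiratory chain, 13 were lower in both, and 4 differed by 1 or more in either direction. Proteasome subunits had 1 such gene among 35, PSMA3, a name of several entries that was picked here after its value was seen (1.42). The chaperones and sensors of the unfolded protein response had 1 among 21, TRIB3, an inhibitor of the kinase AKT (-1.41). The medians of these 4 lists were between -0.02 and 0.11, and their sign turns with the scaling except for the proteasome.

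A breed difference of changes can arise at either day, and the levels show where. Of the 210 genes with a difference of at least 2, 80 were within 2-fold between breeds at D15 and at least 2-fold higher in Jersey cattle at D90. A further 60 were higher in Jersey cattle on both days, 34 changed from lower to higher, and 34 were lower at D15 only. Of the 392 genes with a difference of -2 or less, 178 were within 2-fold at D15 and lower in Jersey cattle at D90. In 97 others the Jersey level had been higher at D15 and was within 2-fold at D90, as for C1QA. These positions follow from the same 4 values and are a description.

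Levels at D250, late lactation, entered neither the changes nor the differences, and were used only to pick the entry of a name that several entries carry. Over all members, 21.2% were at least 2-fold higher in Jersey than in Kashmiri cattle at D250 and 10.9% at least 2-fold lower. Among the 210 genes with a difference of at least 2, 159 (75.7%) were higher in Jersey cattle at D250 and 5 (2.38%) lower. Among the 392 genes with a difference of -2 or less, 187 (47.7%) were lower in Jersey cattle and 30 (7.65%) higher. Both shares were above those of all members. At D15 the first set had been higher in Jersey cattle in 60 genes and lower in 70, and the second set higher in 168 and lower in 46. The median log2 ratio of Jersey over Kashmiri at D15 was 0.04 in the first set and 0.67 in the second, against -0.10 for all members. Values at D15 entered the difference that formed both sets, so these counts are a description.

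Single genes named above had the following levels at D250. IL1A stood at 1.495 FPKM in Kashmiri and 173 FPKM in Jersey cattle, and TNFAIP3 at 25.1 and 267 FPKM. CD3E stood at 135 and 19.5 FPKM and PDCD1, within 2-fold between the breeds, at 5.55 and 3.09 FPKM. In Kashmiri cattle CD3E was back near its D15 level, whereas in Jersey cattle it was lower than on either earlier day. The 18 T and NK cell markers summed to 497 and 249 FPKM, the 12 neutrophil markers to 674 and 21228 FPKM, and the 16 epithelial markers to 2725 and 1476 FPKM.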

How the data were processed

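Cells of whole-udder milk were pelleted and epithelial cells were captured on beads carrying an antibody to cytokeratin 18. The authors made stranded, poly-A-selected libraries, sequenced them in pairs, aligned the reads with Bowtie2 and TopHat to the bovine assembly UMD3.1, and deposited a single FPKM value per gene for each breed and day from Cufflinks and Cuffdiff, pooled over libraries. FPKM is relative to all mapped fragments, so very abundant genes lower the values of all others. The values carry no read counts, hence no depth, interval or test.

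The column named Local was taken as Kashmiri. Named entries were kept, a repeated name was represented by its entry with the highest mean over the 6 groups, and genes under 1 FPKM in all 4 groups or listed at 0 in any were left out. Changes were log2 ratios with a pseudocount of 1 FPKM, which understates the change of low genes, and a gene was counted as higher or lower from a log2 value of 1. The members and the 47 gene lists were chosen with earlier results of these data known. The genes named had at least 1 FPKM in all 4 groups and a symbol of their own. They were the 6 per class with the largest smaller change of the breeds, the 8 largest and 8 smallest breed differences, up to 4 per list by size of the difference, and further genes of lists described with counts, a few of which are not reported here. Other pseudocounts, filters, scalings and limits were tried. Python 3.11.15, numpy 2.4.6, pandas 2.3.3, scipy 1.17.1 and matplotlib 3.10.9 were used, and the scripts were tested on simulated data.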

Additional observations from a re-analysis of the deposited data

How the results depend on the processing

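No paired analysis was possible because the columns hold 1 pooled value per breed and day and carry no replicate numbers, and for the same reason no replicate could be left out. Of 60 counts under other settings, 46 stayed within 1.5 times the value as reported. The median differences of T cell, epithelial, cell cycle and NF-kB genes kept their direction under every setting tried. With a pseudocount of 0.1 FPKM the genes higher in both breeds numbered 904, those higher in Jersey and lower in Kashmiri cattle 57, those of the opposite kind 216, and the median difference of B cell markers was -2.76. With no pseudocount these values were 1004, 71, 268 and -2.98, and 2450 genes had a difference of -1 or less. In these settings genes of very low FPKM gain weight. FPKM rescaled to the sum without milk protein genes gave 955 genes higher in both breeds. A limit of 2 on the log2 scale left 210 and 392 genes with differences in the positive and negative direction, 38 higher and 257 lower in both breeds, and 4 and 1 in the opposite classes. With genes listed at 0 kept, the median difference of the milk protein list turned from -2.18 to 9.98, since caseins listed at 0 entered it. The turned median is therefore no measure of a breed difference in casein expression. The depth behind each value is unknown and limits every gene of low FPKM.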

Other observations

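Genes of iron handling, 9 members of 16, were spread widely between breeds. NCOA4, the receptor that delivers ferritin to lysosomes, went from 132 to 28.5 FPKM in Kashmiri and from 35.6 to 67.2 FPKM in Jersey cows, a difference of 3.07. ACO1, the cytosolic aconitase that also binds iron-responsive RNA elements, went from 118 to 36.4 FPKM in Kashmiri and from 56.0 to 59.0 FPKM in Jersey cows. Of the 9, 5 differed by 1 or more and 3 by -1 or less. FTH1, the ferritin heavy chain used by every cell, was listed at 0 in Jersey cattle at D90 while the other 3 groups lay between 1005 and 4706 FPKM, so a 0 in this table can be a failed estimate. Of the 177 genes left out, 89 were listed at 0 in Jersey cattle at D90, 55 in Jersey cattle at D15, 73 in Kashmiri cattle at D15 and 54 in Kashmiri cattle at D90.

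The widest differences over all kinds of names belonged to genes that the naming rule excluded, and they were picked here after their values were seen. Metazoa_SRP, a small RNA name carried by 21 entries, had the widest difference (11.1). It went from 200 to 1.14 FPKM in Kashmiri and from 2.13 to 73.8 FPKM in Jersey cows. SNORD50, a small nucleolar RNA, stood at 7047 FPKM in Kashmiri cattle at D15 and between 1.13 and 3.29 FPKM in the other 3 groups. TMEM232, a membrane protein gene, stood at 1051 FPKM in that group and between 0.506 and 1.34 FPKM in the others. The paper lists SNORD50 and TMEM232 among its top genes between D15 and D90 in Kashmiri cattle. The libraries were made from polyadenylated RNA. Of the 29 genes that were higher in Jersey and lower in Kashmiri cattle, 9 were classed by name as small RNAs, not counting joined or repeated names. Such names made up 104 of the 11764 members and 0 of the 96 genes with the opposite directions.

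Among the remaining lists, NADPH oxidase and antioxidant genes (median difference 0.56, 17 members) had 8 members at least 2-fold higher at D90 in Jersey and 5 in Kashmiri cattle. Leukocyte adhesion genes (-0.82, 14 members) had 2 and 8 such members. MHC class I genes (-0.10, 13 members), whose median turns its sign with the scaling, had 0 members with a difference of 1 or more in either direction.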
